A study of Mus musculus with 15 samples.

Results

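The 8 genes described here encode the tumour suppressor p53 (Trp53) and the proteins that set its level and activity: the E3 ligase Mdm2 and its partner Mdm4, the phosphatase Ppm1d (Wip1), the deubiquitinase Usp7, the p53-binding protein Trp53bp1 and the kinases Atm and Chek2. They were chosen by symbol, with earlier results of these data already known. All 8 were found among the 36144 gene symbols measured, and all 8 passed the filter on low values that left 15425 genes for testing.

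RNA was measured in motor neurons of the lumbar spinal cord (segments L1 to L3) of mouse pups on an FVB background at postnatal day 6. The neurons were captured by laser and their polyadenylated RNA was amplified from a low input. There were 15 libraries in 5 groups of 3. WT pups had the genotype Smn+/+;SMN2;SMNΔ7 and SMA pups the genotype Smn-/-;SMN2;SMNΔ7, so both carried the human SMN2 and SMNΔ7 transgenes and differed in the mouse Smn gene. Both received vehicle. The other groups were SMA pups injected intraperitoneally each day from postnatal day 0 with MW150, an inhibitor of the kinase p38α (5 mg/kg), Pifithrin-α, an inhibitor of p53 (2.2 mg/kg), or SMN-C3, a modifier of SMN2 splicing (3 mg/kg). They are called SMA+MW150, SMA+Pifithrin-α and SMA+SMN-C3. Male and female pups were used in equal proportions, with no sex given per library. The labels number the libraries of a group as replicates without saying that each is a separate animal, so the tests measure the spread between libraries.

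In unstressed cells Mdm2 attaches ubiquitin to p53 and sends it to the proteasome, and Mdm4 binds p53 and holds its transcriptional activity down. Stress kinases such as Atm and Chek2 phosphorylate p53 and its inhibitors, which frees p53. Active p53 then raises the transcription of Mdm2 and Ppm1d, whose products switch it off again, so these genes are both regulators and targets. Motor neuron death in mouse models of spinal muscular atrophy is known to involve p53. The amount of p53 is set largely at the level of the protein, which was not measured here.

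Values are TPM, a level corrected for transcript length and scaled so that every library sums to 1000000. TPM carries no read depth, so no counting interval is given. Smn1, the gene removed in SMA mice, was at 8.97, 16.5 and 23.3 TPM in WT and between 0 and 1.5 TPM in the 12 libraries of the SMA genotype. The 8 motor neuron markers were found, at summed levels of 1556 to 4432 TPM per library. Markers of other cells were present too. Their sums were 949 to 2274 TPM for astrocytes, 445 to 5849 TPM for the oligodendrocyte lineage and 208 to 2631 TPM for red blood cells. The oligodendrocyte sum was above the motor neuron sum in SMA replicate 2 (4260 against 2986 TPM) and SMA+MW150 replicate 3 (5849 against 3290 TPM). WT replicate 1 and SMA+Pifithrin-α replicate 3 stood apart, with 21.9% and 20.4% of all TPM in mitochondrially encoded genes. In the remaining 13 libraries that share was 3.76% to 12.6%. WT replicate 1 also held the highest share of retained-intron transcripts, 7.93% of its non-mitochondrial TPM. The typical gene was not at 0 in these comparisons. Between WT and SMA the median gene differed by 0.24 (log2, higher in SMA), and the drugs moved the median gene from its SMA level by 0.06 (MW150), -0.22 (Pifithrin-α) and -0.23 (SMN-C3), and the changes below are to be read beside these medians.

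Trp53 (ENSMUSG00000059552.13; chromosome 11, 69580359 to 69591873, plus strand, GRCm38) had levels of 14.1, 16.1 and 15.7 TPM in the WT libraries, against 50.4, 37.8 and 34.9 TPM without mouse Smn. No SMA library reached down to a WT one. The difference of 1.35 on the scale of log2(TPM + 1), used for all log2 changes (SE 0.36), did not pass the test across all genes (limma, adjusted p 0.153). Trp53 was lower in libraries with a higher mitochondrial share (Pearson's r -0.68 over 15 libraries that share their groups), and with that share as a term the difference was 0.93 (limma, adjusted p 0.321). With MW150 the values were 34.5, 47.1 and 36.9 TPM, overlapping SMA. With Pifithrin-α they were 43.2, 32.9 and 14.2 TPM. SMA+Pifithrin-α replicate 3, the library with the high mitochondrial share, was at the WT level while the other 2 overlapped SMA or lay just under it. With SMN-C3 they were 15.7, 33.5 and 21 TPM, all below SMA and with 1 library inside the range of WT. Against SMA the log2 differences were -0.05 (95% interval -0.81 to 0.71), -0.55 (-1.31 to 0.21) and -0.83 (-1.60 to -0.07), and none was called (limma, adjusted p 1, 0.517 and 0.548).

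Mdm2 (ENSMUSG00000020184.15; chromosome 10, 117688875 to 117710758, minus strand) was the only one of the 8 genes that was called. WT libraries held 8.31, 10.2 and 15.1 TPM of Mdm2 and SMA libraries 50.4, 25.8 and 39.9 TPM, with no overlap. Mdm2 rose by 1.69 on the log2 scale in SMA (SE 0.32; limma, adjusted p 0.0250), a call that 0.363% of the tested genes reached. With MW150 Mdm2 was at 49.9, 31.3 and 40.3 TPM, and with Pifithrin-α at 45.3, 33.0 and 28.2 TPM. Those 6 libraries lay inside the range of SMA. With SMN-C3 the whole Mdm2 gene was at 12.8, 16.1 and 19 TPM, below every SMA library and overlapping WT at the lower end. Against SMA the log2 differences were 0.09 (95% interval -0.58 to 0.76) with MW150, -0.10 (-0.77 to 0.58) with Pifithrin-α and -1.19 (-1.87 to -0.52) with SMN-C3. None of them was called (limma, adjusted p 1, 0.906 and 0.229), where 0.00648%, 0.00648% and 0.0648% of all genes were.

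Against WT, Mdm2 was again called in SMA+MW150 (log2 1.78, SE 0.32; limma, adjusted p 0.0284), beside 0.143% of all genes. In SMA+Pifithrin-α the difference from WT was 1.59 (adjusted p 0.0890 in limma, with 0.117% of all genes called). In SMA+SMN-C3 it was 0.49 (95% interval -0.18 to 1.17; adjusted p 0.684 in limma, with 0.0194% called). Between drugs, Mdm2 was higher by 1.28 with MW150 and by 1.10 with Pifithrin-α than with SMN-C3, in libraries that did not overlap, and neither was called (limma, adjusted p 0.173 and 0.460). No member was called between drugs, where 0.00648% of genes were for MW150 against SMN-C3 and 0% for both comparisons with Pifithrin-α. Over all 5 groups at once, the limma F test called Mdm2 (adjusted p 0.0339), with 34 of 15425 genes (0.220%) called. For the other 7 members the adjusted p of that test was 0.373 to 0.712.

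The Mdm2 calls rested on few libraries. For SMA against WT the call was lost without WT replicate 1, WT replicate 2, SMA replicate 1 or SMA replicate 3, with adjusted p up to 0.197. For SMA+MW150 against WT it was lost in 5 of 6 such fits, all but the one without WT replicate 3. With the fit restricted to the groups compared, the adjusted p was 0.211 and 0.152. Over all settings tried, those without 1 library included, the log2 change of Mdm2 in SMA against WT was 1.38 to 2.08. When WT replicate 1 and SMA+Pifithrin-α replicate 3 were both left out, Trp53 also passed in SMA against WT (limma, adjusted p 0.0488), and Mdm2 and Ppm1d passed in SMA+SMN-C3 against SMA (adjusted p 0.0438 and 0.0496). The Trp53 difference between SMA+Pifithrin-α and SMA then went from -0.55 to -0.10. This last setting was chosen after the data were seen.

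**Figure D1:**
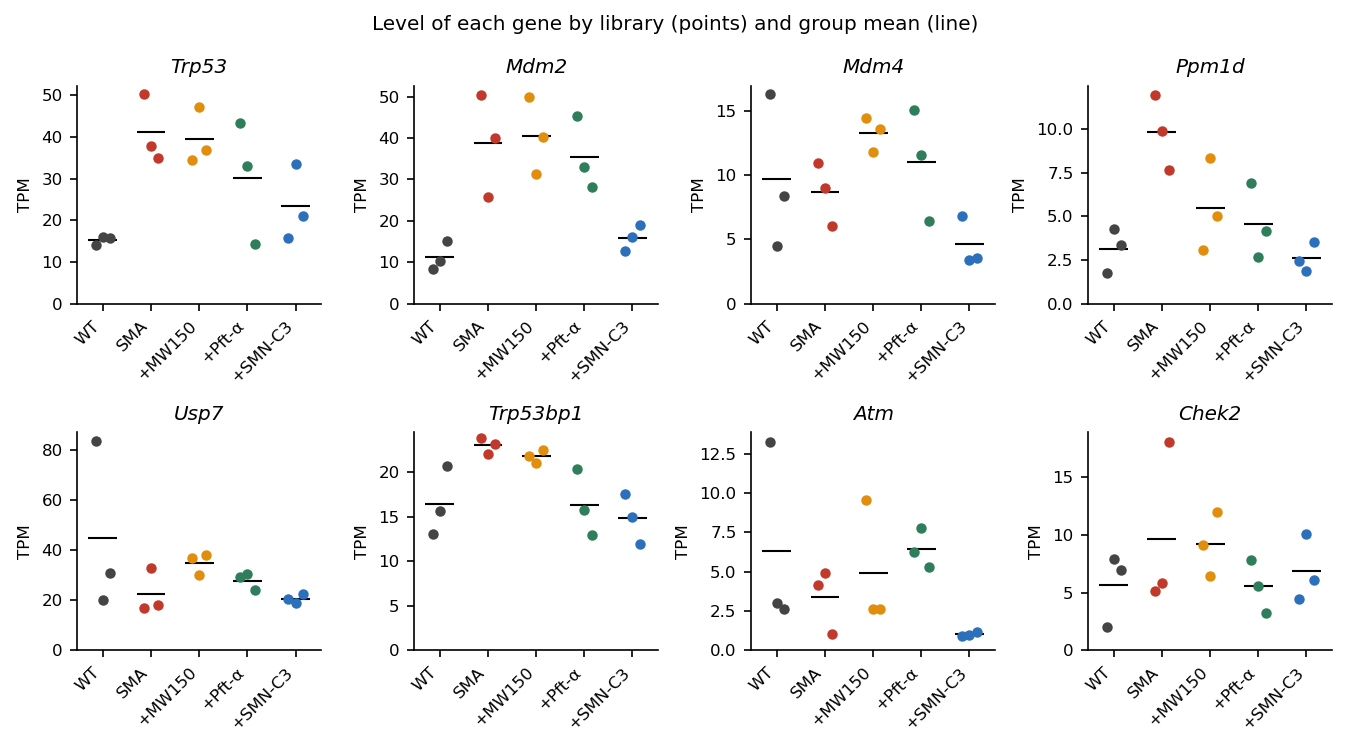
Level of the 8 genes in TPM (vertical axis, from 0) by group (horizontal axis; +MW150, +Pft-α for Pifithrin-α and +SMN-C3 are the treated SMA groups), with 1 point per library and a line at the group mean (n = 3). Trp53, Mdm2, Ppm1d and Trp53bp1 are higher in each SMA library than in each WT library, and 1 WT library at 83.6 TPM of Usp7 and 13.2 TPM of Atm stands above the others.

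Markers of microglia were also higher in SMA than in WT. The summed level of the 10 microglia markers, all of them detected, was 56.9 to 85.6 TPM in WT, 162 to 189 TPM in SMA, 117 to 160 TPM with MW150, 76.9 to 134 TPM with Pifithrin-α and 84.4 to 104 TPM with SMN-C3. Every library with a drug lay below every SMA library in this sum. Mdm2, counted over all its transcripts, stayed inside the range of SMA with MW150 and Pifithrin-α. The part of RNA from microglia or other cells in the values of Trp53 and Mdm2 was not tested. In captured tissue, fewer cells of a type and less RNA per cell cannot be told apart.

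Mdm2 is transcribed from an upstream promoter and from a second one inside the first intron, and the second is known to carry binding elements for p53. The annotated transcript Mdm2-207 starts in that intron, with a first exon at chr10:117709946-117710292 (minus strand, GRCm38). The p53 consensus element was searched there as 2 adjacent half-sites of 10 bases, each 3 purines, C, a pair of A or T, G and 3 pyrimidines. Up to 3 mismatches of 20 were allowed outside the C and G of each core. The element reads the same on both strands. One match was found, shown because it lies in the first exon of Mdm2-207, one of the transcripts without exon 3, with the core of each half-site in capitals (chr10:117710105-117710124, minus strand, 3 mismatches; transcript sequence of GENCODE M21).

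Mdm2 intron 1 element: ggtCAAGttgggaCACGtcc

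A match was present in 453 of the RefSeq promoter windows of 300 bases (1.38%; GRCm38.p6, 250 bases before to 50 after the start). All 8 members had such a window and Mdm4 had 2. Of these 9 windows, only that of Trp53 held a match, also with 3 mismatches. The upstream Mdm2 promoter window held none. A match describes letters only and is no evidence of binding.

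Exon 3 of Mdm2 (chr10:117709700-117709784, minus strand, 85 bases) holds the start codon of the full-length protein. Its coding part is printed because it is what the transcripts described next lack. The start codon is in capitals.

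Mdm2 exon 3 coding part (chr10:117709700-117709780): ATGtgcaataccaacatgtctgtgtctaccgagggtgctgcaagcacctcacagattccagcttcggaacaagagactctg

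Mdm2-203, Mdm2-206 and Mdm2-207 are the 3 annotated transcripts that pass from the exon before it to exon 4 and so lack this sequence. Mdm2-206 and Mdm2-207 start inside intron 1, and Mdm2-203 at the upstream promoter. All 3 are annotated as processed transcripts without a coding sequence and are short (570, 683 and 499 bases, against 3099 for Mdm2-201). Their summed level was 0, 0 and 0.502 TPM in WT and 10.2, 6.99 and 8.81 TPM in SMA. It was 13.2, 4.47 and 8.76 TPM with MW150, 12.2, 5.28 and 1.65 TPM with Pifithrin-α and 1.75, 1.73 and 1.48 TPM with SMN-C3. The WT libraries were listed at 0 or near it, and every SMN-C3 library was above WT and below SMA.

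As a share of the Mdm2 TPM that spans this exon, the transcripts without it made up 0%, 0% and 3.43% in WT and 20.5%, 28.5% and 22.3% in SMA. The share was 26.7%, 15.7% and 22.2% with MW150, 27.9%, 16.3% and 5.85% with Pifithrin-α and 13.7%, 10.8% and 7.80% with SMN-C3. It was higher in SMA than in WT by 22.7 percentage points and lower with SMN-C3 than in SMA by 13 points, with no overlap in either case (exact two-sided permutation p = 0.1 each, adjusted exact p 0.286 over 60 tests). The differences from SMA with MW150 (-2.28 points) and Pifithrin-α (-7.13 points) were within the spread of the libraries (exact permutation p = 0.5 and 0.4). The part of Mdm2 that includes exon 3 was also higher in SMA, at 17.5 to 39.6 TPM against 8.31 to 14.2 TPM in WT. Levels of single transcripts are estimates that divide reads between overlapping sequences, and reads across the junction were not analysed here.

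**Figure D2:**
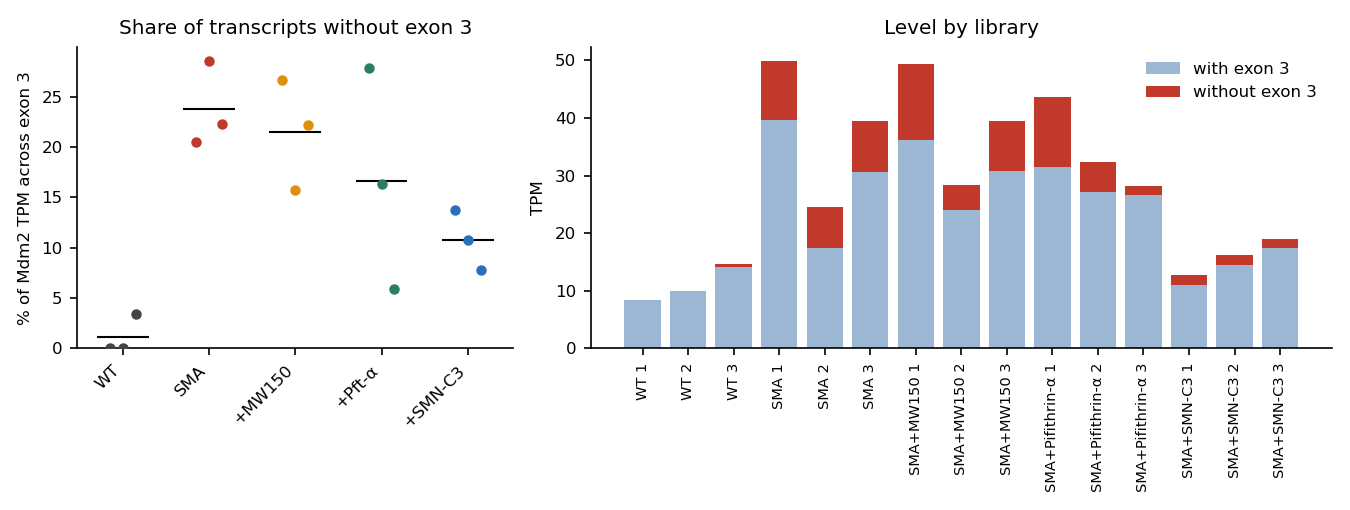
Left, share of Mdm2 transcripts without exon 3 among those that span it (vertical axis, percent, from 0) in each library, with a line at the mean of each group of 3. Right, TPM of transcripts with and without exon 3, stacked, in each of 15 libraries. The share is at most 3.43% in WT, 20.5% to 28.5% in SMA and 7.80% to 13.7% with SMN-C3.

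A second form of Mdm2, the nonsense-mediated decay transcript Mdm2-209, lacks exon 8 (chr10:117695953-117696049, 97 bases). It was looked at after its values were seen. Its share of the transcripts spanning this exon was 93.5% in WT replicate 1 and 47.6% and 50.3% in SMA+Pifithrin-α replicates 2 and 3. In the other 12 libraries it was 4.51% to 26.3%. These are 3 of the 4 libraries with the highest mitochondrial share (21.9%, 12.6% and 20.4%), and the part of RNA quality in this was not tested. No difference between the 4 main pairs of groups stood out (exact permutation p = 0.2 to 1).

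Ppm1d (ENSMUSG00000020525.17; chromosome 11, 85311244 to 85347066, plus strand), whose product removes activating phosphates from p53 and from Atm, was also higher in every SMA library than in every WT library. WT libraries held 1.78, 4.25 and 3.37 TPM of Ppm1d and SMA libraries 12.0, 9.86 and 7.68 TPM. With MW150 it was at 3.08, 8.35 and 5.03 TPM, with 1 library inside the range of SMA. With Pifithrin-α it was at 6.89, 2.68 and 4.18 TPM, all below SMA. With SMN-C3 it was at 2.45, 1.88 and 3.52 TPM, below SMA and across the range of WT. The log2 difference was 1.42 for SMA against WT (SE 0.40), and -0.80, -1.01 and -1.59 for the drugs MW150, Pifithrin-α and SMN-C3 relative to SMA. None was called (limma, adjusted p 0.182, 1, 0.461 and 0.192). Ppm1d was lower in libraries with a higher mitochondrial share (Pearson's r -0.52 over 15 libraries that share their groups).

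Mdm4 (ENSMUSG00000054387.13; chromosome 1, 132959484 to 133030561, minus strand) did not follow Mdm2. WT libraries held 16.3, 4.46 and 8.36 TPM of Mdm4 and SMA libraries 10.9, 8.98 and 6.09 TPM, all inside the range of WT. The log2 difference was -0.02 (95% interval -0.91 to 0.87; limma, adjusted p 0.980) and turned positive, at 0.40, without WT replicate 1. With MW150 Mdm4 was at 14.5, 11.8 and 13.6 TPM, all above SMA, and with Pifithrin-α at 15.1, 11.5 and 6.48 TPM. With SMN-C3 it was at 6.86, 3.41 and 3.59 TPM, a log2 difference from SMA of -0.80 (-1.69 to 0.09). None of these differences was called (limma, adjusted p 0.637 to 1).

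Skipping of exon 6 of Mdm4 (chr1:133004654-133004721, minus strand, 68 bases) removes the reading frame of the full-length protein and is a known way of lowering Mdm4. It is shown as the exon that decides between productive and unproductive Mdm4 RNA.

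Mdm4 exon 6: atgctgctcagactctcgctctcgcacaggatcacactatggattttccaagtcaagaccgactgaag

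In these libraries the transcript without it, Mdm4-214, was rare, at 0 to 0.442 TPM. Its share of the transcripts spanning the exon was 0% to 1.23% in WT, 0% to 2.06% in SMA, 3.64% to 5.32% with MW150, 4.01% to 6.65% with Pifithrin-α and 0% to 8.76% with SMN-C3. The MW150 and Pifithrin-α libraries were above all SMA libraries (exact permutation p = 0.1 each), at levels too low to read further. The full-length transcript Mdm4-210 carried most of the coding Mdm4 RNA, at a mean of 3.99 TPM.

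Trp53bp1, which binds chromatin at DNA breaks and was first isolated as a partner of p53, is on chromosome 2 (ENSMUSG00000043909.16; 121193281 to 121271407, minus strand). It ranged over 13 to 20.7 TPM in WT and 22.1 to 23.9 TPM in SMA, the narrowest spread of any member in that group. It was at 21 to 22.5 TPM with MW150, 13 to 20.3 TPM with Pifithrin-α and 11.9 to 17.6 TPM with SMN-C3. The SMA libraries lay above WT, SMA+Pifithrin-α and SMA+SMN-C3, by 0.49, 0.49 and 0.62 on the log2 scale, with no call (limma, adjusted p 0.415, 0.476 and 0.548). Trp53bp1 was lower in libraries with a higher mitochondrial share (Pearson's r -0.65 over 15 libraries that share their groups). It overlaps Tubgcp4 on the other strand, at 5.60 to 28.3 TPM, and the sources used here do not say whether reads were assigned by strand.

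Chek2 (ENSMUSG00000029521.7; chromosome 5, 110839979 to 110874145, plus strand) encodes a kinase that acts on p53 downstream of Atm. It spanned 2.0 to 18.1 TPM, and every group overlapped every other. Its log2 difference between SMA and WT was 0.63 (95% interval -0.43 to 1.69; limma, adjusted p 0.538). SMA replicate 3, at 18.1 TPM, was its highest library, and the other SMA libraries were at 5.13 and 5.79 TPM. In SMA replicate 3 the short processed transcript Chek2-202 (341 bases) held 12.5 TPM and protein-coding transcripts 5.08 TPM. Chek2 was lower in libraries with a higher mitochondrial share (Pearson's r -0.75 over 15 libraries that share their groups).

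The non-overlapping members can be read against all genes. Between SMA and WT the libraries did not overlap for 4 of 8 members (Trp53, Mdm2, Ppm1d and Trp53bp1, all higher in SMA), against 18.3% of all tested genes. Between SMA+SMN-C3 and SMA the same 4 genes did not overlap, all lower with the drug, against 20.7% of all genes. With MW150 only Mdm4 did not overlap (higher, 1 of 8 against 10.9%). With Pifithrin-α, Ppm1d and Trp53bp1 were lower and Atm higher (3 of 8 against 15.3%). The SMA libraries enter all 4 comparisons, so these counts are not independent of each other. The members were chosen with earlier results of these data known, so the counts and shares are set side by side without a test. The median log2 change of the 8 members was 0.56, 0.10, -0.29 and -0.82 in the order SMA against WT, then MW150, Pifithrin-α and SMN-C3 against SMA, where the medians of all genes were those given above.

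**Figure D3:**
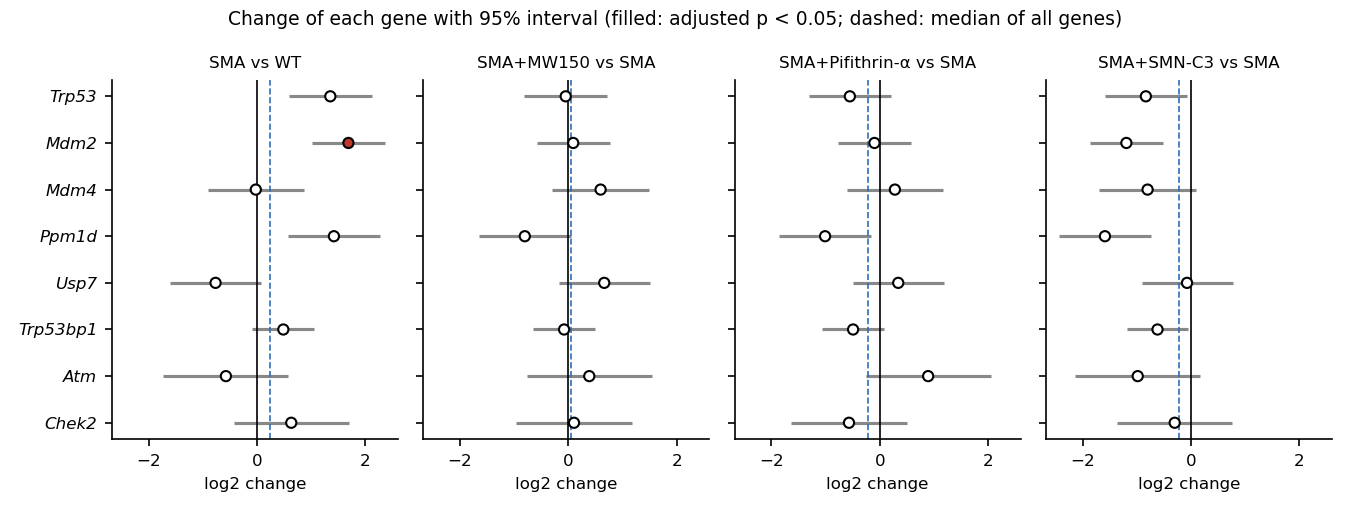
Log2 change of the 8 genes (horizontal axis) in the 4 main comparisons, with 95% intervals from limma on 15 libraries, a filled point where the adjusted p was under 0.05 and a dashed line at the median of all tested genes. Mdm2 in SMA against WT, at 1.69, is the single filled point. With SMN-C3 all 8 points lie below 0, in a comparison where only 26.6% of all tested genes lie above 0.

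Part of the Usp7 and Atm TPM came from transcripts annotated as retaining an intron, to a degree that differed between libraries. Usp7 (ENSMUSG00000022710.17; chromosome 16, 8689595 to 8792308, minus strand) removes ubiquitin from both Mdm2 and p53. It was at 83.6, 19.99 and 31 TPM in WT, 17.0, 33.0 and 17.9 TPM in SMA, 36.9, 30.0 and 38.1 TPM with MW150, 29.1, 30.3 and 24.1 TPM with Pifithrin-α and 20.4, 18.8 and 22.4 TPM with SMN-C3. The value of 83.6 TPM in WT replicate 1 was mostly made of transcripts annotated as retaining an intron, at 57.7 TPM. In the other WT libraries these were at 3.07 and 9.27 TPM. They reached 12.2 to 14.7 TPM with MW150, 8.15 to 10.6 TPM with Pifithrin-α and 0.0371 to 1.75 TPM with SMN-C3, and SMA spanned 0.618 to 11.7 TPM. The protein-coding transcripts of Usp7 had group means of 13 ± 3.22 TPM in WT, 14.4 ± 1.32 TPM in SMA, 15.3 ± 2.06 TPM with MW150, 11.6 ± 5.03 TPM with Pifithrin-α and 14.4 ± 2.95 TPM with SMN-C3 (SD, n = 3 each). Their SD was smaller than that of the whole gene in WT (34.0 TPM), SMA (8.97 TPM) and SMA+MW150 (4.38 TPM), and larger with Pifithrin-α (3.29 TPM) and SMN-C3 (1.81 TPM). The log2 difference of the gene between SMA and WT was -0.76 (limma, adjusted p 0.396) and turned to 0.16 with protein-coding transcripts only, a setting added after the data were seen.

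Atm (ENSMUSG00000034218.16; chromosome 9, 53439149 to 53536740, minus strand), the kinase that responds to DNA double-strand breaks, was low throughout. It was at 13.2, 2.98 and 2.64 TPM in WT, 4.18, 4.90 and 1.05 TPM in SMA, 9.54, 2.63 and 2.65 TPM with MW150, 6.27, 7.79 and 5.29 TPM with Pifithrin-α and 0.884, 0.998 and 1.15 TPM with SMN-C3. Protein-coding transcripts made up 5.14% to 94.7% of Atm TPM in a library. Their group means were 0.578 ± 0.103 TPM in WT, 1.03 ± 0.587 TPM in SMA, 1.03 ± 0.398 TPM with MW150, 0.866 ± 0.102 TPM with Pifithrin-α and 0.545 ± 0.253 TPM with SMN-C3 (SD, n = 3 each). The high Atm values were again retained-intron transcripts, at 12.6 TPM in WT replicate 1 and 4.48 to 6.81 TPM with Pifithrin-α, against 0.0468 to 0.761 TPM with SMN-C3. Over whole libraries, the share of retained-intron transcripts was also lowest with SMN-C3, at 3.38% to 3.57% of non-mitochondrial TPM against 3.70% to 7.93% elsewhere. The part of that share in the values of Usp7 and Atm was not tested. The difference of the gene between SMA+Pifithrin-α and SMA, 0.89 on the log2 scale, was not called (limma, adjusted p 0.493) and became -0.08 with protein-coding transcripts only.

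**Figure D4:**
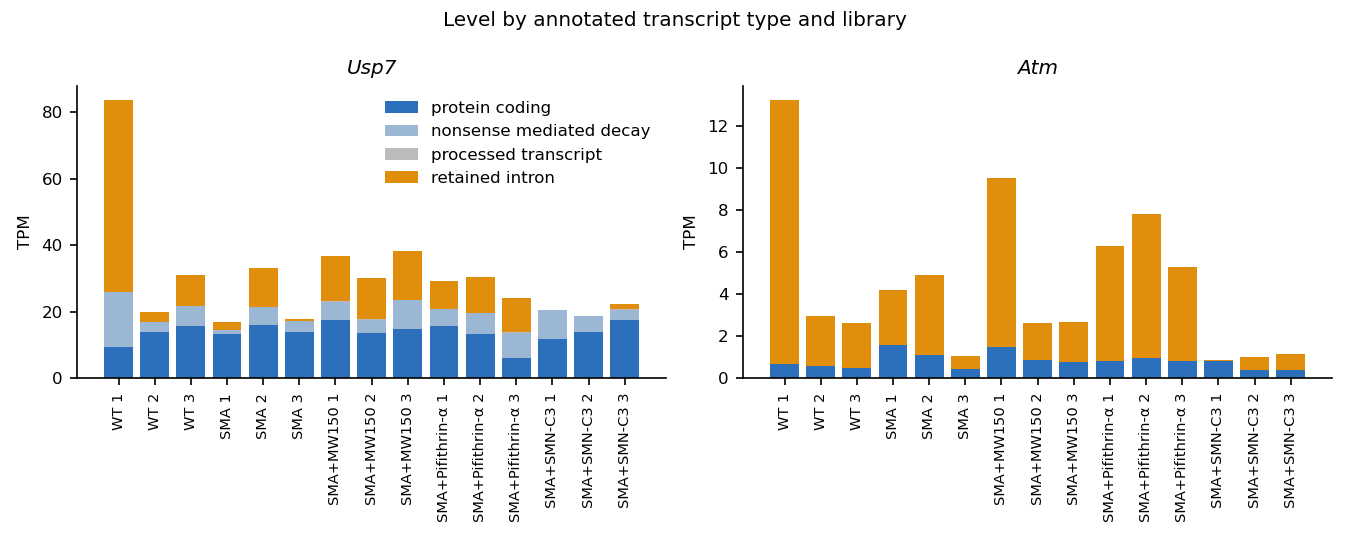
Level of Usp7 and Atm in TPM (vertical axis, stacked from 0) in each of the 15 libraries (horizontal axis), split by the annotated type of transcript. The retained-intron part reaches 57.7 TPM of Usp7 and 12.6 TPM of Atm in WT replicate 1, and is at most 1.75 TPM and 0.761 TPM with SMN-C3.

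Plain TPM ratios within a library do not depend on how that library was scaled. The ratio of Mdm2 to Trp53 TPM was 0.590, 0.637 and 0.965 in WT and 1.0, 0.681 and 1.14 in SMA, and these groups overlapped. It was 1.45, 0.666 and 1.09 with MW150, 1.05, 1.0 and 1.98 with Pifithrin-α and 0.814, 0.481 and 0.904 with SMN-C3. Between SMA and WT the ratio differed by 0.33 on the log2 scale (exact two-sided permutation test, p = 0.2). Against SMA it differed by 0.14 with MW150 (exact p = 0.8), 0.45 with Pifithrin-α (exact p = 0.4) and -0.36 with SMN-C3 (exact p = 0.4). The MW150 difference turned to -0.11 without SMA+MW150 replicate 1 and to -0.07 without SMA replicate 2. Counted over all transcripts, the Pifithrin-α libraries all lay above the WT libraries and above the SMN-C3 libraries. The log2 differences were 0.79 and 0.81 (exact p = 0.1 each, the smallest that 3 against 3 libraries can give). Without SMA+Pifithrin-α replicate 3 these differences were 0.49 and 0.51. In SMA+Pifithrin-α replicate 3 the ratio of 1.98 came from Trp53 at the WT level beside Mdm2 at 28.2 TPM. Log ratios were taken after adding 1 TPM to both values, so the log2 differences and their tests do depend on the scaling, most for low genes.

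The ratio of Mdm2 to Mdm4 was 0.510, 2.30 and 1.81 in WT and 4.62, 2.87 and 6.56 in SMA, with no overlap (log2 difference 1.71; exact permutation p = 0.1). Without WT replicate 1 this difference was 1.11. It was 3.44, 2.65 and 2.96 with MW150, 3.00, 2.86 and 4.36 with Pifithrin-α and 1.86, 4.73 and 5.28 with SMN-C3. The MW150 and Pifithrin-α libraries also lay above all WT libraries, and 1 SMN-C3 library fell within the range of WT. The ratio of Mdm4 to Trp53 was 1.16, 0.277 and 0.533 in WT and 0.217, 0.237 and 0.174 in SMA, lower in every SMA library (log2 difference -1.38, exact permutation p = 0.1, and -0.90 without WT replicate 1). Over all transcripts it was 0.420, 0.252 and 0.369 with MW150 and 0.350, 0.351 and 0.455 with Pifithrin-α, above every SMA library (0.64 and 0.83, exact permutation p = 0.1 each). With SMN-C3 it was 0.437, 0.102 and 0.171 and overlapped SMA. In protein-coding transcripts, Mdm4 and Trp53 were at 1.75 and 16.1 TPM in WT replicate 2. They were at 5.93 and 37.3 TPM in SMA replicate 2, so WT and SMA overlapped in this ratio. With Pifithrin-α it overlapped SMA too, at 5.22 and 43.0 TPM in SMA+Pifithrin-α replicate 1. With MW150 it stayed above SMA, with the lowest ratio at 8.53 and 46.4 TPM in SMA+MW150 replicate 2.

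The ratio of Ppm1d to Trp53 was 0.126, 0.265 and 0.215 in WT and 0.237, 0.261 and 0.220 in SMA (log2 difference 0.07, exact permutation p = 0.9, and -0.14 without WT replicate 1). It was lower than in SMA in every library with MW150 (0.0891, 0.177 and 0.136) and with SMN-C3 (0.156, 0.0561 and 0.168), by 0.75 on the log2 scale for each (exact permutation p = 0.1). Without SMA+SMN-C3 replicate 2 the latter difference was -0.32. With Pifithrin-α it was 0.159, 0.0814 and 0.294, with 1 library above all SMA libraries (log2 difference -0.46, exact permutation p = 0.4), and the difference was -0.06 without replicate 2 of that drug and -0.89 without replicate 3. Cdkn1a, which encodes the cell cycle inhibitor p21 and is a standard reference target of p53, stood at 2.54 to 2.96 times the TPM of Trp53 in WT. That ratio was 16.9 to 30.2 in SMA, 16.3 to 32.3 with MW150, 13.7 to 16.4 with Pifithrin-α and 9.34 to 20.2 with SMN-C3, so each SMA-genotype library was above each WT library. The Pifithrin-α libraries were below all SMA libraries (log2 difference -0.70, exact permutation p = 0.1), with highest and lowest values of 16.4 and 16.9. With SMN-C3 the log2 difference from SMA was -0.80, in libraries that overlapped SMA (exact permutation p = 0.2). Mdm2 stood at 0.215 to 0.339 times the TPM of Cdkn1a in WT, and at 0.0226 to 0.0676 times in SMA. In all, 9 ratios were compared over 10 pairs of groups. Of these 90 tests, 30 reached the smallest exact p of 0.1, and the smallest adjusted exact p was 0.3.

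**Figure D5:**
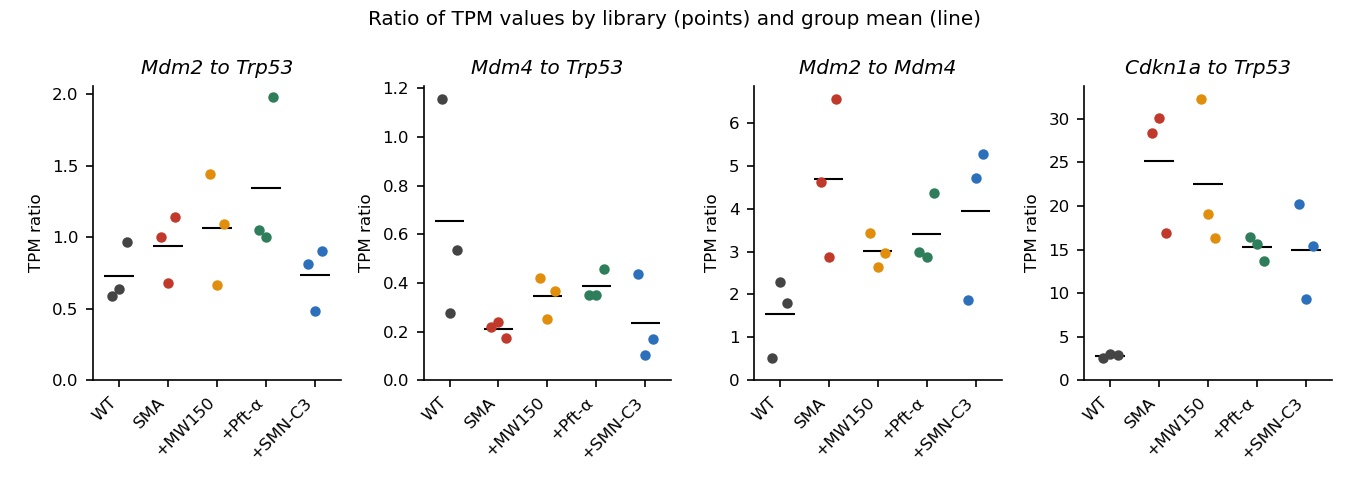
Ratio of TPM values (vertical axis, from 0) in each library (points) and its group mean (line) for Mdm2 to Trp53, Mdm4 to Trp53, Mdm2 to Mdm4 and Cdkn1a to Trp53, with 3 libraries per group. Counted over all transcripts, the ratio of Mdm2 to Trp53 overlaps between WT and SMA, while that of Mdm2 to Mdm4 does not (0.510 to 2.30 against 2.87 to 6.56). In protein-coding transcripts alone, the ratio of Mdm2 to Mdm4 overlaps between WT and SMA.

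Every gene was also fitted relative to Trp53, with variances moderated over all genes. Between SMA and WT, Mdm4 (-1.38), Usp7 (-2.12) and Atm (-1.93) were called lower relative to Trp53 (limma, adjusted p 0.0284, 0.00875 and 0.0184), and Cdkn1a higher (3.16, adjusted p 8.99e-05). Because Trp53 itself was higher in SMA, 51.8% of all genes were called in this fit, so the 3 member calls are near the background. Mdm2 (0.33, adjusted p 0.453) and Ppm1d (0.07, adjusted p 0.902) were not called relative to Trp53. The count of 3 became 1 without WT replicate 1 and 0 without SMA replicate 1. Against SMA no member was called relative to Trp53 with MW150 (0% of genes called), Pifithrin-α (0%) or SMN-C3 (0.00648%). At an unadjusted p under 0.05 the members were Atm alone with Pifithrin-α (1.44) and none with the other drugs.

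Over all members, 37 of their 75 annotated transcripts could be tested for a change in share within the gene, and none was called in the 4 main comparisons (limma on 35860 transcripts). The share was tested on a log2 scale with 1 TPM added to transcript and gene, on which Mdm2-203, Mdm2-206 and Mdm2-207 differed by only -0.08, -0.02 and 0.20 between SMA and WT, since a transcript listed at 0 then keeps a share that depends on the gene's level. Among all transcripts, 0.0279% were called between SMA and WT, 0% with MW150, 0.00279% with Pifithrin-α and 0% with SMN-C3. At an unadjusted p under 0.05 there were 2, 3, 4 and 1 member transcripts in that order, beside 10.97%, 4.62%, 7.72% and 6.37% of all transcripts. Trp53-202 had such a p with each drug, with a higher share of Trp53 than in SMA by 1.69, 2.36 and 1.88 on the log2 scale. Trp53-206 went the other way, by -2.25, -2.06 and -1.83 (limma, unadjusted p 0.032, 0.046 and 0.072). Each drug was compared with the same SMA libraries, so these differences are not independent of each other. The coding transcripts Trp53-201, Trp53-202, Trp53-203 and Trp53-206 are nearly the same length (1771 to 1867 bases), and how TPM was divided among them is uncertain. Protein-coding transcripts held 95.1% to 99.97% of Trp53 TPM and 100% of Ppm1d TPM in every library, but on average 61.3% of Mdm2, 53.3% of Usp7, 51.2% of Mdm4, 33.3% of Trp53bp1, 29.9% of Chek2 and 28.7% of Atm. Between the 10 pairs of groups, the adjusted exact p of these shares did not go below 0.444 over 80 permutation tests.

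The wider pathway was read from lists of genes around the members. These lists were drawn up with earlier results of these data known, so their counts beside all genes are descriptions, not tests. The feedback targets of p53 were the one list with calls. Of 11 tested, 3 were called higher in SMA than in WT and none lower, where 0.363% of all genes were called. They were Cdkn1a (log2 4.51), the p53-stability regulator Gtse1 (2.33) and cyclin G1, Ccng1 (1.75), which recruits a phosphatase to Mdm2 (limma, adjusted p 1.83e-05, 0.0124 and 0.0118). Their list had a median log2 change of 1.40 against 0.24 for all genes. WT libraries held 35.9, 47.5 and 44.7 TPM of Cdkn1a and SMA libraries 590 to 1431 TPM. Ccng1 was at 12.5 to 22.5 TPM in WT, 46.7 to 95.2 TPM in SMA, 45.1 to 64.3 TPM with MW150, 67.1 to 87.0 TPM with Pifithrin-α and 35.7 to 43.4 TPM with SMN-C3. Against WT, 2 genes of the list were called with MW150 (Cdkn1a and Gtse1), 2 with Pifithrin-α (Cdkn1a and Ccng1) and 1 with SMN-C3 (Cdkn1a), all higher, beside 0.143%, 0.117% and 0.0194% of all genes. Against SMA none was called with any drug, and the median change was -0.10 with MW150, -0.48 with Pifithrin-α and -0.68 with SMN-C3.

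No gene was called in any of the 10 comparisons among 12 other negative regulators of p53, 14 DNA damage sensors and kinases, 10 p53 kinases outside the DNA damage response, 11 acetyltransferases and cofactors or 7 tested genes of ribosomal stress. Their median log2 changes in SMA against WT were 0.02, 0.06, 0.44, 0.42 and -0.13. Among the first listed of each, the ligase genes Cop1 and Rchy1 differed by 0.45 and 0.81, the kinase genes Atr and Chek1 by -0.54 and -0.42, and Hipk2 and Mapk14, which encodes the target of MW150, by 0.12 and 0.54. The acetyltransferase genes Ep300 and Crebbp differed by -0.35 and -0.62, and Rpl5 and Rpl11, whose products bind Mdm2, by -0.49 and 0.08 (limma, adjusted p 0.219 to 0.907 for these 10).

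Of the p53 family, Trp73 was listed at 0 in the 3 WT and the 3 SMN-C3 libraries and was at 6.39, 1.88 and 1.37 TPM in SMA. It was at 1.67, 0.764 and 0.430 TPM with MW150 and at 0.614, 0.263 and 0.0701 TPM with Pifithrin-α. Most of these values are near or under the 1 TPM of the filter, and without read counts a listed 0 does not show that the RNA was absent. Trp73 reached 1 TPM only in the SMA libraries and in SMA+MW150 replicate 1, so it passed the filter through the group where it was high. The difference between SMA and WT was not called (limma, adjusted p 0.0576), and for that reason this p is a description only. Trp63, the other family member, did not pass the filter on low values.

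The genes whose levels were most like those of the members across the 15 libraries were looked up among 10008 genes with a mean of at least 5 TPM. For Trp53 they were Ddit4, Pik3ip1, Nme4, Tap1 and Snrnp70, with Pearson's r of 0.957 to 0.912. For Mdm2 they were Plk2, Plek2, 1500009L16Rik, Ubox5 and Uspl1, with r of 0.937 to 0.908. Plk2 was at a mean of 6.63 TPM in WT, 37.9 TPM in SMA, 27.2 TPM with MW150, 28.3 TPM with Pifithrin-α and 10.3 TPM with SMN-C3. These are descriptions over libraries that share their groups and their scaling, with no test.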

How the data were processed

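RNA was measured in 15 libraries of laser-captured mouse motor neurons. The deposited tables give TPM per gene symbol and per transcript, made by the authors with kallisto 0.44.0 on GRCm38.p6, per the submitters' processing notes. The annotation release is not given in the sources used here. Of 118489 transcripts, 98.5% matched GENCODE M21, from which coordinates, transcript types and exons were taken. The 8 members and all gene lists were chosen with earlier results of these data known.

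Genes that reached 1 TPM in 3 or more libraries were modelled as log2(TPM + 1) with limma 3.58.1 in R 4.3.3, 1 mean per group over all 15 libraries, variances moderated with a trend. P-values were adjusted over all genes (Benjamini-Hochberg) and called under 0.05. Fold changes of low genes are understated on this scale. Relative fits used log2 ratios to Trp53 and transcript fits the log2 share of the gene, each after adding 1 TPM to both values. Ratios and exon shares were compared by exact two-sided permutation (Python 3.11.15, pandas 2.3.3, numpy 2.4.6, matplotlib 3.10.9). On simulated data with 200 of 15425 genes changed between SMA and WT, limma recovered 0 at log2 1, 135 at log2 2 and 199 at log2 4. TPM states no depth, so precision rests on the spread between libraries. Named genes were the members, Cdkn1a, Smn1, the 5 genes most alike to Trp53 and to Mdm2, and from each list the called genes and the first 2 listed. Alternatives were other pseudocounts, filters, scalings, weights, a replicate block, and leaving out libraries.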

Additional observations from a re-analysis of the deposited data

How the results depend on the processing

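Of 744 log2 changes of the members recomputed under other settings, 662 kept their direction and their side of the threshold, 42 changed sign, 24 became calls and 16 lost one. Mdm2 was the 1 member called in SMA against WT. That count was 0 with no filter on low values, with only the groups compared or with protein-coding transcripts only, 2 with array weights or without the 2 libraries of highest mitochondrial share, and 0 to 1 without 1 library. For SMA+MW150 against WT the 1 call became 0 with no filter, median-of-ratios scaling, only the groups compared or protein-coding transcripts only, 2 with array weights, and 0 to 1 without 1 library. For SMA+Pifithrin-α against WT it was 1 with median-of-ratios scaling, without mitochondrial genes or with mitochondrial share as a term. With array weights it was 4 there, 5 for SMA+Pifithrin-α against SMA, 2 for SMA+SMN-C3 against SMA, 5 for MW150 against SMN-C3, 3 for MW150 against Pifithrin-α and 5 for Pifithrin-α against SMN-C3, where the count reported was 0. MW150 against SMN-C3 gave 1 with mitochondrial share as a term and 3 with only the groups compared. Without the 2 libraries of highest mitochondrial share it gave 2, as did SMA+SMN-C3 against SMA. Members called relative to Trp53 in SMA against WT numbered 0 to 3 without 1 library. Where the construction of a setting (fewer samples or more genes tested) does not show it, the cause was not tested.

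The adjusted p of Mdm2 in SMA against WT was 0.00290 to 0.211 over the settings in limma. Changes of sign concerned uncalled values. With median-of-ratios scaling, Mdm2 became 0.16 (Pifithrin-α against SMA) and -0.15 (MW150 against Pifithrin-α), and Usp7 0.18 (SMN-C3 against SMA). Without mitochondrial genes, Mdm2 became 0.020 (Pifithrin-α against SMA). With mitochondrial share as a term, Mdm4 became 0.14 (SMA against WT), Trp53 0.00053 (MW150 against SMA), Mdm2 0.23, Usp7 -0.10 and Chek2 0.084 (Pifithrin-α against SMA), and Mdm2 -0.11 (MW150 against Pifithrin-α). With array weights, Mdm4 became 0.37 (SMA against WT), Trp53 0.038 and Chek2 -0.18 (MW150 against SMA), and Usp7 0.018 (SMN-C3 against SMA). With protein-coding transcripts only, Mdm4 became 0.077, Usp7 0.16 and Atm 0.33 (SMA against WT), Trp53bp1 0.078 (MW150 against SMA), Mdm4 -0.18, Usp7 -0.37 and Atm -0.083 (Pifithrin-α against SMA), and Chek2 0.16 (SMN-C3 against SMA). Without the 2 libraries of highest mitochondrial share, Mdm4 became 0.40 and Atm 0.061 (SMA against WT), and Mdm2 0.051 (Pifithrin-α against SMA). These last 2 settings were chosen after seeing the data, as was leaving out libraries for ratios other than that of Mdm2 to Trp53 in the main comparisons.

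Without 1 library at a time, ranges that crossed 0 were -0.43 to 0.40 for Mdm4 and -0.92 to 0.061 for Atm (SMA against WT). For MW150 against SMA they were -0.18 to 0.10 for Trp53, -0.17 to 0.30 for Mdm2, -0.13 to 0.67 for Atm, -0.19 to 0.63 for Chek2 and -0.11 to 0.44 for the ratio of Mdm2 to Trp53. They were -0.36 to 0.12 for Mdm2 (Pifithrin-α against SMA), -0.24 to 0.22 for Usp7 and -0.60 to 0.22 for Chek2 (SMN-C3 against SMA), -0.14 to 0.23 for the ratio of Ppm1d to Trp53 (SMA against WT), and -0.037 to 0.73 for Trp53 (Pifithrin-α against SMN-C3).

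With the replicate number as a block, no call changed (Mdm2 in SMA against WT, 1.69, adjusted p 0.0401 in limma). Same-numbered libraries correlated at -0.34 to 0.285, over 0.1 in 4 of 30 pairs, and a library correlated best with its own number in 10 of 30 cases, so the numbers were not taken to pair samples. TPM states no depth, so what depth limits cannot be given here.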
